A study of Mus musculus with 12 samples.

Results

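The comparison described here is that of mouse embryonic fibroblasts exposed to WM-2474 with fibroblasts exposed to the solvent DMSO, both for 96 h. Its members are the 6 libraries that the labels give to these conditions, 3 per group out of 12 libraries in 4 groups, and every gene with an identifier, 26305 in number. Of these genes, 13499 had enough counts to be tested. The other 12806 were not tested, and 7297 of them had 0 counts in all 6 libraries.

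The fibroblasts came from wild-type male C57BL/6 embryos of day 13.5 and were grown in DMEM with 10% fetal bovine serum at 3% oxygen and 5% CO2. Both groups share this origin and culture, and they differ by 10 µM WM-2474, which the labels call an inactive control, against DMSO, the vehicle. The other 6 libraries come from the same treatments after 240 h and were used for the shared estimate of spread and for the test between times. The labels number the replicates 1 to 3 in each group and do not say whether they came from separate embryos, so that p-values measure the spread between these cultures only. Poly(A) RNA was made into stranded libraries and counted per gene.

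Embryonic fibroblasts are primary connective tissue cells that divide a limited number of times before they arrest, an arrest that the CDK inhibitors encoded by Cdkn2a and Cdkn1a help to impose. WM-2474 belongs to a compound series whose active members inhibit the MYST-family lysine acetyltransferases KAT6A and KAT6B, enzymes that acetylate histone H3 and keep Cdkn2a low. An inactive relative serves to show which changes come with adding a compound of that series at all, and the data at 96 h address that question. Immediate early genes, such as Egr1, Fos and Btg2, encode short-lived products that cells transcribe within minutes of a growth factor, a medium change or a stress, and their level in a culture depends closely on how it was handled before lysis.

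The libraries held 10961741 to 16148590 counts and 16727 to 17151 detected genes, and 3 counts, taken as the floor of detection, equal 0.186 to 0.274 CPM, the unit of counts scaled to library size. The fibroblast matrix genes Col1a1 and Fn1, a collagen chain and fibronectin, stood at 10640 to 14240 CPM and 7337 to 8791 CPM. The Y-linked genes Ddx3y and Uty were present in all 6 libraries, at 59.9 to 74.6 CPM and 20.5 to 25.3 CPM. Mitochondrially encoded genes took 1.48 to 1.60% of the counts. The defining lymphocyte markers Cd3e, Pax5 and Ms4a1 were at 0 in all 6 libraries, and the epithelial marker Epcam did not exceed 0.171 CPM. The 10 epithelial markers together summed to 24.6 to 32.4 CPM, most of it from the keratin gene Krt19 at 22.4 to 25.9 CPM. Because whole cultures were measured, fewer cells of a kind and less RNA per cell cannot be told apart in any of the values below.

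After 96 h with WM-2474 the transcriptome of these fibroblasts was close to that of the solvent control. With all 12 libraries in an edgeR quasi-likelihood fit, 0 of 13499 genes were higher and 0 were lower at an adjusted p under 0.05, which is 0% in each direction. Before adjustment, 283 genes (2.10% of those tested) had a p under 0.05, of which 145 were higher and 138 lower with WM-2474. That share is below the 0.05 expected where no gene differs, so this fit may miss small differences. DESeq2 also called 0 genes in this comparison, with 109 genes under an unadjusted 0.05. The immediate early gene Egr1 stood 1.24-fold higher with WM-2474, by a like amount at each replicate number, and had the smallest p when those numbers were kept as pairs.

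The data bound the size of a response as well. The median log2 fold change was 0.00, and 95% of all genes lay between -0.29 and 0.32. The 95% interval of the fold change stayed within 1.5-fold in either direction for 11366 genes (84.2%) and within 1.2-fold for 7409 genes (54.9%). This precision depended on the level of the gene. Among the 7322 genes at 10 to 100 CPM, 99.2% had an interval within 1.5-fold, and 99.7% of the 2199 genes above 100 CPM did. At 1 to 10 CPM the share was 55.3%, and under 1 CPM it was 0%, so that a difference of 1.5-fold could not be bounded for any of the 527 genes of that class. The fitted difference exceeded 1.5-fold for 119 genes, all of them below 10 CPM, and 2-fold for 19 genes.

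**Figure D1:**
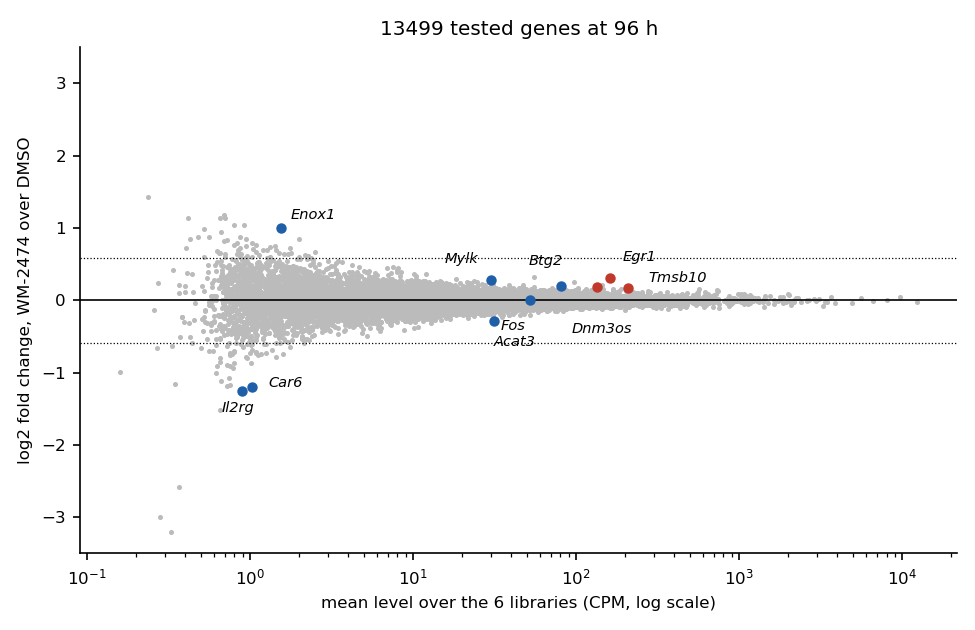
Fitted log2 fold change of WM-2474 over DMSO at 96 h (vertical axis) against the mean CPM of the 6 libraries on a log scale (horizontal axis), 1 point per tested gene. Dotted lines mark 1.5-fold, red points are the 3 genes called when replicate numbers are kept as pairs, and blue points are other genes named in the text; every gene beyond 1.5-fold lies below 10 CPM.

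Replicate number separated the 6 libraries more than treatment did. The first principal component, with 28.65% of the variance, ran from both libraries of replicate 1 at -14.35 and -13.38 to both of replicate 2 at 10.87 and 12.05. The second, with 23.5%, set both libraries of replicate 3 apart at -11.99 and -14.39. On each of these components the partners of a number lay side by side, whatever they had been given. The third component, with 17.33%, had each DMSO library, at 0.22, 13.26 and 4.68, above the WM-2474 library of the same number, at -1.05, -13.8 and -3.3. Most of that separation lay in replicate 2.

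**Figure D2:**
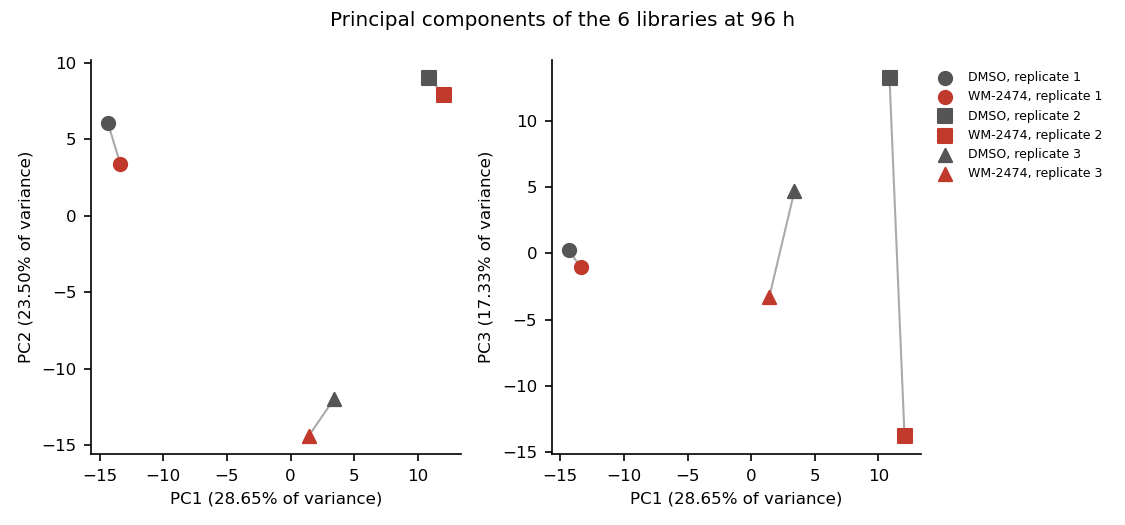
Scores of the 6 libraries of 96 h on the first and second (left) and first and the third (right) principal components of log2 CPM, with the share of variance on each axis. Grey lines join the DMSO (grey) and WM-2474 (red) libraries of 1 replicate number; on the left the partners lie together, and on the right only replicate 2 is drawn far apart.

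Variation was also split gene by gene. Within the log2 levels of the 6 libraries, replicate number accounted for more of a gene's variation than treatment for 10634 of 13499 genes (78.8%). The number has 2 degrees of freedom and the treatment 1. The number would therefore exceed the treatment for most genes even where neither had an effect, so this share alone does not show an order. Over the 2199 genes above 100 CPM the number took 69.73% of the summed variation and the treatment 11.02%. Libraries of different treatment and the same number differed by a median of 0.08 to 0.10 log2 units per gene, whereas libraries of the same treatment and different numbers differed by 0.10 to 0.12. The collagen gene Col1a1, picked after its values were seen, shows this pattern at its clearest. It was at 10900, 14210 and 12260 CPM in DMSO replicates 1 to 3 and at 10640, 14240 and 11730 CPM in the WM-2474 replicates of the same numbers. The cultures of replicate 2 thus carried the most Col1a1 under both treatments. Deviations from the group means correlated between same-numbered libraries at r of 0.30, 0.23 and 0.19 over genes, all above the 0.1 set for treating the numbers as pairs.

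When same-numbered cultures were compared as pairs within the 6 libraries of 96 h, the edgeR test called 3 of 13377 genes higher, a background of 0.0224%, and 0 lower, or 0%. The 3 genes were Egr1, Tmsb10 and Dnm3os. The number of genes with an unadjusted p under 0.05 was 846 (6.32%) in this fit.

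Egr1 (identifier 13653, chromosome 18) encodes a zinc finger transcription factor that is made within minutes of growth factor signalling and itself drives further genes. It was at 137.5, 144.7 and 150.6 CPM in DMSO replicates 1 to 3 and at 169.6, 183.2 and 184.5 CPM in WM-2474 replicates 1 to 3. The lowest WM-2474 library lay above the highest DMSO library, and the same-numbered ratios were 1.23, 1.27 and 1.22. The means were 144.3 ± 6.57 and 179.1 ± 8.22 CPM (SD, n = 3). In the fit with pairs the log2 fold change was 0.31 with a standard error of 0.04 (edgeR adjusted p = 1.12e-09), and without pairs it was 0.31 with a standard error of 0.07 (edgeR adjusted p = 1, unadjusted 4.46e-04). Treatment accounted for 89.2% of the variation of Egr1 among the 6 libraries, replicate number for 10.4%. Per length, the mean level of Egr1 over the 6 libraries was 141 TPM, above that of Btg2 at 70.6 TPM.

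After 240 h the estimate for Egr1 was close to 0, with a log2 fold change of 0.01 and a 95% interval of -0.15 to 0.17. The effect at 240 h minus that at 96 h was -0.30 (edgeR unadjusted p = 0.0105, adjusted p = 0.977) without pairs, where 0 of 13499 genes (0%) differed between the times. It was -0.29 with the replicate number as a block within each time (edgeR adjusted p = 0.0354), 1 of 6 genes to pass there. The replicate numbers of 240 h did not meet the rule for pairs.

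Btg2 (identifier 12227, GRCm38.p6 chromosome 1, 134074865 to 134079155), an antiproliferative gene under p53 and growth factor control, went the same way without passing the threshold in either edgeR fit of all replicates. Its levels were 70.6, 76.9 and 80.1 CPM with DMSO and 81.7, 89.1 and 89.0 CPM with WM-2474. The groups did not overlap, as was so for 489 genes in this direction (3.62% of those tested), and the same-numbered ratios were 1.16, 1.16 and 1.11. The log2 fold change was 0.19 with a standard error of 0.05 without pairs (edgeR adjusted p = 1) and 0.19 with pairs (edgeR adjusted p = 0.0847). With pairs it did pass by limma-voom (adjusted p = 0.0424) and, without replicate 3, by edgeR (adjusted p = 0.0138). Calls from fits that leave out a pair are weak evidence, since such fits called another gene, Lars2, in opposite directions. At 240 h the log2 fold change of Btg2 was 0.11, with an interval of -0.002 to 0.22.

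Tmsb10 (identifier 19240, chromosome 6, 72957347 to 72958748) encodes thymosin beta 10, a small protein that binds actin monomers. It was at 192.2, 189.9 and 204.4 CPM with DMSO and at 229.1, 199.3 and 229.5 CPM with WM-2474. The WM-2474 library of replicate 2 lay within the range of the DMSO libraries, so the groups overlapped, but each same-numbered ratio was above 1, at 1.19, 1.05 and 1.12. The log2 fold change was 0.17 with a standard error of 0.04 (edgeR with pairs, adjusted p = 0.0350). At 240 h the log2 fold change was 0.34, with an interval of 0.22 to 0.46 (edgeR without pairs, adjusted p = 0.0231). Without replicate 1 the call was lost, at 0.12 on the log2 scale (edgeR adjusted p = 0.728). Thymosin genes have processed copies elsewhere in the genome, and how reads matching several places were counted is not given in the sources used here.

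Dnm3os (identifier 474332, chromosome 1, 162217623 to 162225550) is the long noncoding RNA from which the miR-199a and miR-214 precursors are cut, and it lies inside Dnm3 on the opposite strand. Its levels were 137.2, 118.0 and 122.4 CPM with DMSO and 150.4, 138.1 and 139.2 CPM with WM-2474. The groups did not overlap by a narrow margin, and the same-numbered ratios were 1.10, 1.17 and 1.14. The log2 fold change was 0.18 with a standard error of 0.04 (edgeR with pairs, adjusted p = 0.0417). At 240 h it was 0.04, with an interval of -0.13 to 0.20. Leaving out replicate 1 or replicate 2 ended the call (edgeR adjusted p = 0.102 and 0.347). Since the strand setting of the counting was not given, reads of Dnm3 and Dnm3os cannot be told apart with certainty.

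**Figure D3:**
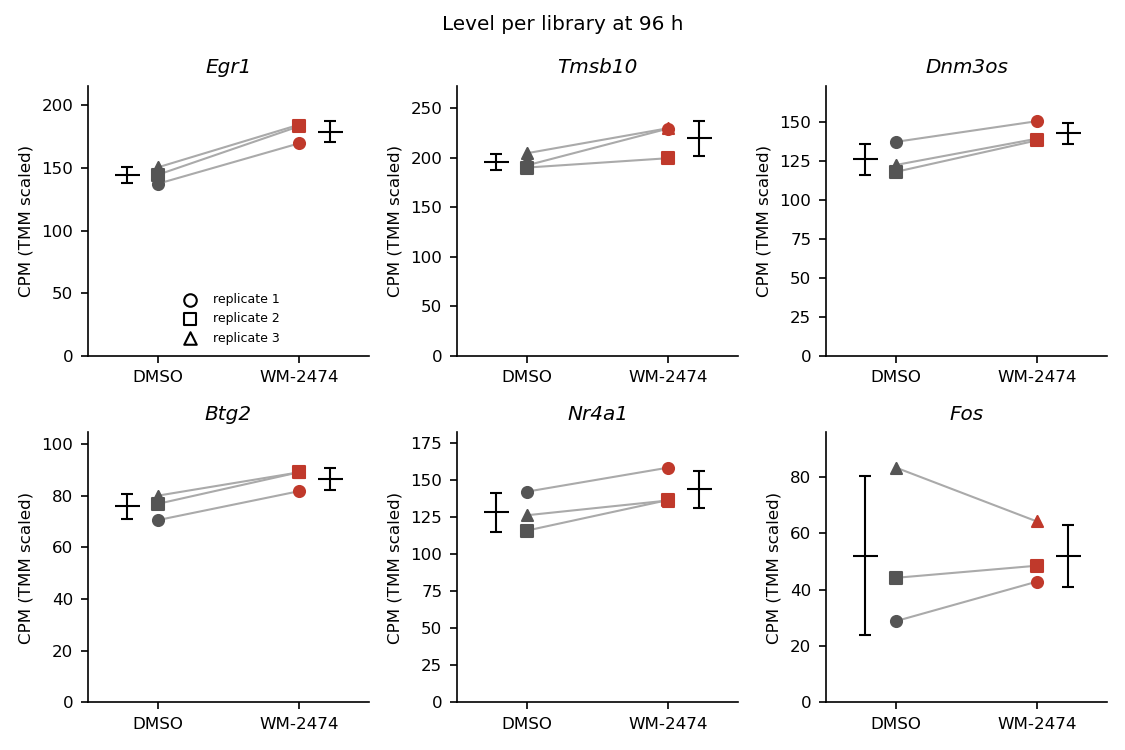
CPM of 6 genes in each library of 96 h, with DMSO in grey, WM-2474 in red, a symbol per replicate number and a line joining same-numbered cultures; black bars are means ± SD of 3 libraries. Lines of Egr1, Btg2, Nr4a1, Tmsb10 and Dnm3os all slope upward, while for Fos the line of replicate 3 slopes downward.

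Of 29 immediate early genes listed, 28 were tested; Egr1 was the only one called with pairs, and 0 were called without them. In all, 16 were above 0 and 12 below, with a median log2 fold change of 0.02, against 6752 above, 6740 below and a median of 0.00 over all tested genes. The medians by replicate number were 0.09, 0.05 and -0.04, so that the list as a whole did not keep its direction in replicate 3. Myc, the growth regulator, had the smallest p on the lower side at -0.12. In all 3 pairs 8 of the 28 tested members were higher and 2 lower. Over all tested genes 13.3% were higher and 13.4% lower throughout.

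Besides Egr1 and Btg2, Egr2 and Nr4a1 were among the members higher at every number. Egr2, a relative of Egr1 picked after its values were seen, was at 3.25, 2.46 and 2.52 CPM with DMSO and at 3.99, 4.71 and 3.24 CPM with WM-2474; its lowest WM-2474 library lay level with the highest DMSO library. For Egr2 the log2 fold change was 0.52 with a standard error of 0.19 (edgeR unadjusted p = 0.0115, adjusted p = 1). Nr4a1, an orphan nuclear receptor induced by many signals and named here after its values were seen, was at 142.0, 115.8 and 126.1 CPM with DMSO and 158.1, 136.3 and 136.0 CPM with WM-2474. Its groups overlapped while its ratios were 1.11, 1.18 and 1.08, and it missed the threshold with pairs (edgeR adjusted p = 0.0847). It passed with pairs by limma-voom (adjusted p = 0.0424) and by edgeR without replicate 3 (adjusted p = 0.00221).

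Fos and Fosb, subunits of the AP-1 transcription factor, followed the replicate number instead. They and Junb, another such subunit, were picked after their values were seen. Fos was at 28.9, 44.2 and 83.2 CPM in DMSO replicates 1 to 3 and at 42.8, 48.5 and 64.2 CPM in the matching WM-2474 cultures. Its level was thus highest in replicate 3 and lowest in replicate 1 under both treatments, while the log2 ratio of WM-2474 to DMSO was 0.57, 0.13 and -0.37. Fosb was at 8.50, 8.88 and 31.0 CPM with DMSO and 9.24, 8.15 and 23.2 CPM with WM-2474, again with replicate 3 high in both. Replicate number accounted for 82.5% of the variation of Fos and 97.2% of that of Fosb, and treatment for 1.3% and 0.8%. Junb had log2 ratios of 0.23, 0.20 and -0.10. Without the pair of replicate 3, the fit with pairs called Fos at a log2 fold change of 0.35 (edgeR adjusted p = 4.60e-04); with all pairs it was 0.06 (edgeR adjusted p = 0.989).

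**Figure D4:**
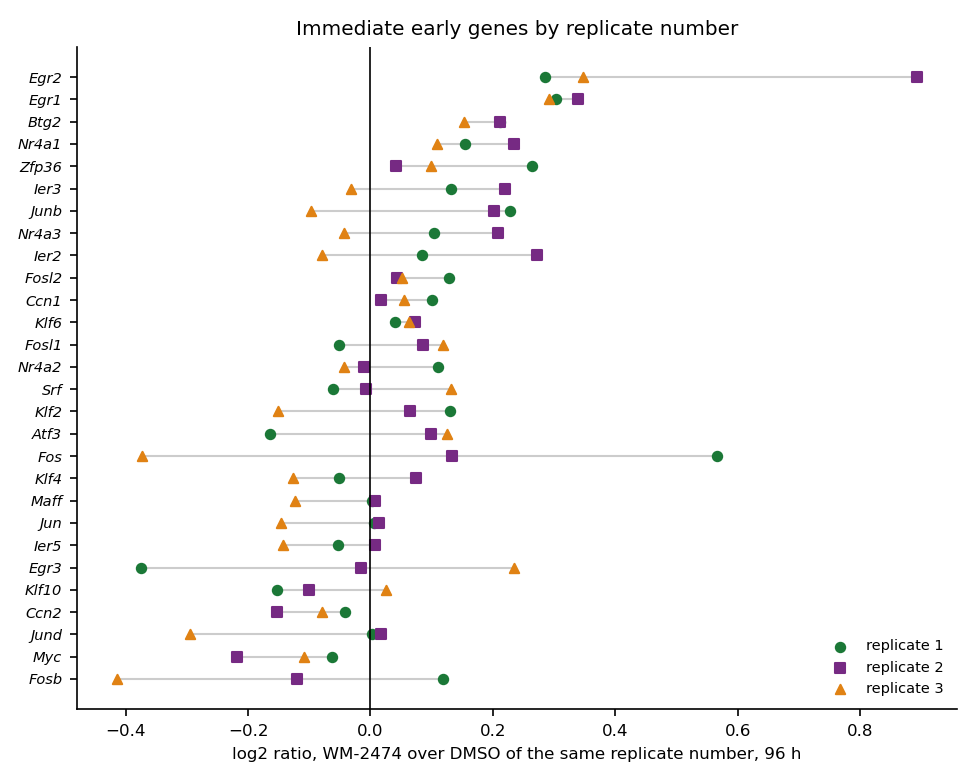
Log2 ratio of WM-2474 to DMSO for each of the 28 tested immediate early genes, 1 symbol per replicate number, ordered by the fitted fold change. Egr1 keeps its 3 symbols between 0.29 and 0.34, whereas Fos runs from -0.37 to 0.57.

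The windows from 250 bases before to 50 bases after the annotated start are shown for Btg2 and Dnm3os. Btg2 was the immediate early gene closest to Egr1 in significance in the edgeR fit without pairs. By limma-voom with pairs Nr4a1 had a smaller unadjusted p than Btg2. Dnm3os is one of the called genes. The matches of Nr4a1 and of the called gene Tmsb10 are given below without their sequences. No window of Egr1 was available. Both windows shown are RefSeq sequences of GRCm38.p6, given 5′ to 3′ on the gene's strand, at chr1:134079106-134079405 (minus strand) and chr1:162217373-162217672 (plus strand). Capitals mark matches to the motifs searched on both strands: in Btg2 the cyclic AMP response element TGACGTCA and then the EGR element GCGNGGGCG, in Dnm3os a CArG box, the element bound by serum response factor.
Btg2: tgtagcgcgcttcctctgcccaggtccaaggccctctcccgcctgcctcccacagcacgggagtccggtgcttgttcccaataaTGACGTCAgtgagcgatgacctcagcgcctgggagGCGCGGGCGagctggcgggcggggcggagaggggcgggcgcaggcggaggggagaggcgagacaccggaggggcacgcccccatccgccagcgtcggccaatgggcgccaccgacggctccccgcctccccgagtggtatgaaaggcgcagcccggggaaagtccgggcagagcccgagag
Dnm3os: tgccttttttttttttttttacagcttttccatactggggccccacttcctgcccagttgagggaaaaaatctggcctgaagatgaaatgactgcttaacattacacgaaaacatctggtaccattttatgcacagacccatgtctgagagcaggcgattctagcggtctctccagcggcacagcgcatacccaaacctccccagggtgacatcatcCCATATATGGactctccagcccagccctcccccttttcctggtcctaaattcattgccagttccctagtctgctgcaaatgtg

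Counted from the annotated start, the cyclic AMP response element of Btg2 spans -166 to -159 and its EGR element -131 to -123. The CArG box of Dnm3os spans -33 to -24. Of the 22271 windows in the table, 2.25% held TGACGTCA, 7.51% GCGNGGGCG, 1.55% a CArG box and 7.24% the AP-1 element TGANTCA. A window was listed for 21 of the 28 tested immediate early genes. Of these, 10 held the EGR element (47.6%), against 12.6% of the 10391 tested genes with a window. A CArG box was held by 3 (14.3%, against 1.61% of tested genes). The cyclic AMP response element was held by 2 (9.52%, against 3.65%) and the AP-1 element by 0 (against 6.13%). Nr4a1 held 1 EGR element, and the 3 windows of Tmsb10 held none of the 4 motifs. A match describes letters in a window and does not show a bound site.

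The genes with the smallest p in the fit without pairs came from no single list. Among the 8 higher genes were Mylk, encoding the myosin light chain kinase of contractile cells, and Runx2, a transcription factor of bone-forming cells. Mylk was at 24.3, 27.2 and 29.6 CPM with DMSO and at 30.6, 31.7 and 36.4 CPM with WM-2474, without overlap, with a log2 fold change of 0.28 and a standard error of 0.08 (edgeR adjusted p = 1; with pairs 0.0847, and 0.0424 by limma-voom). Runx2 was at 44.6, 46.1 and 41.1 CPM and at 47.9, 53.6 and 51.7 CPM, a log2 fold change of 0.22. These are differences of 21.8% for Mylk and 16.2% for Runx2.

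The other higher genes were of low abundance. Enox1, a cell surface oxidase gene, had 14, 13 and 15 counts with DMSO and 25, 26 and 27 with WM-2474, giving a log2 fold change of 1.00 with an interval of 0.40 to 1.61 (edgeR adjusted p = 1). Alg6, a glucosyltransferase gene of protein glycosylation, Gpr173, an orphan receptor gene, and Zan, known for its product on sperm, had log2 fold changes of 0.47, 0.44 and 0.84. Enox1 and Zan were among the largest differences without overlap above 1 CPM.

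Among the 8 lower genes, Acat3 encodes an acetyl-CoA acetyltransferase of the first step of sterol synthesis. It was at 35.1, 34.2 and 33.2 CPM with DMSO and at 27.1, 26.4 and 31.1 CPM with WM-2474; all DMSO libraries were above all WM-2474 libraries, as for 517 genes (3.83%). The log2 fold change was -0.28 with a standard error of 0.08 (edgeR adjusted p = 1; with pairs 0.0880, and 0.0424 by limma-voom). Without replicate 3, the edgeR fit with pairs called it (adjusted p = 0.00159). Pno1, a ribosome assembly factor gene, Ndfip2, an adaptor of ubiquitin ligases, Gtpbp1, a GTP-binding protein gene, Prpsap2, of nucleotide synthesis, and Guk1, a guanylate kinase gene, had log2 fold changes of -0.23, -0.20, -0.21, -0.38 and -0.20. Each of these 5 was without overlap between the groups and passed no threshold. Gm6252, with a log2 fold change of -0.20, is a predicted gene whose reads may be shared with a near-identical copy.

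Car6, the last of the 8, encodes a secreted carbonic anhydrase and had 24, 16 and 20 counts with DMSO and 9, 8 and 7 with WM-2474, giving a log2 fold change of -1.19 (edgeR adjusted p = 1). Zfp335os, an antisense transcript at 1.89, 1.05 and 1.26 CPM with DMSO and 0.93, 1.01 and 0.60 CPM with WM-2474, had -0.75 and is uncertain without the strand setting. Il2rg, the receptor chain shared by several lymphocyte cytokines, had 18, 16 and 18 counts with DMSO and 6, 8 and 6 with WM-2474, giving a log2 fold change of -1.25. Other markers of blood cells were read beside it. The summed level of 26 B lineage markers was 28.6 to 35.7 CPM in the DMSO libraries and 29.0 to 31.5 CPM in the others, and 5 of them (Ms4a1, Pax5, Igll1, Iglc1 and Bank1) were at 0 throughout; without Ebf1, which carried most of the sum, the range was 4.44 to 6.33 CPM in DMSO libraries and 2.44 to 3.07 CPM in WM-2474 libraries.

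Markers of T cells summed to 1.62 to 2.90 CPM over the 6 libraries. Those of macrophages and other myeloid cells summed to 11.6 to 14.1 CPM and those of endothelium to 10.6 to 13.8 CPM. In these lists 2 of 14, 4 of 18 and 5 of 10 members had enough counts to be tested. In the epithelial, neural and muscle lists 3 of 10, 5 of 10 and 5 of 11 were tested, and no red cell marker was. No tested member of these lists was called. The pan-leukocyte markers apart from Arhgdib had a summed level of 5.99 to 8.61 CPM in DMSO libraries and 4.59 to 6.13 CPM in WM-2474 libraries. Xist, which is transcribed from an inactive X chromosome and so marks female cells, had 15, 6 and 7 counts in the DMSO libraries of these male cultures and 3, 1 and 0 with WM-2474. Its log2 fold change was -2.58 with an interval of -6.88 to 1.73, near the floor of 3 counts. At 96 h Il2rg, Xist and the B lineage sum without Ebf1 were thus higher in the DMSO libraries without overlap. The pan-leukocyte ranges overlapped, and the part of all these markers in the other results was not tested.

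The genes that the series of compounds is directed at showed no called difference. Kat6a, encoding the target acetyltransferase, was at 73.7, 71.5 and 63.6 CPM with DMSO and 75.9, 69.5 and 77.9 CPM with WM-2474, and Kat6b, its paralogue, at 45.2, 52.1 and 45.2 CPM and 46.5, 41.8 and 44.8 CPM. Their log2 fold changes were 0.10 and -0.09, with intervals of -0.03 to 0.23 and -0.25 to 0.06 without pairs. With pairs the interval of Kat6a was 0.002 to 0.20 (edgeR adjusted p = 0.773) and that of Kat6b -0.20 to 0.03. The log2 fold changes of Kat7, Kat8 and Kat5, the other members of the family, were -0.02, -0.02 and -0.01. Of the 11 acetyltransferases and KAT6 complex subunits, 2 were above 0 and 9 below, with a median of -0.02.

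Cdkn2a, which encodes the cell cycle inhibitors p16 and p19ARF and rises with culture age, was at 91.1, 123.8 and 111.9 CPM with DMSO and 95.4, 115.0 and 99.97 CPM with WM-2474. Its log2 fold change was -0.07 with an interval of -0.29 to 0.15, and its lowest library was replicate 1 under both treatments. Cdkn2b, its neighbour, had a log2 fold change of -0.03 (-0.15 to 0.10) and Cdkn1a, encoding p21, one of 0.00 (-0.09 to 0.09). Of the CDK inhibitors, Cdkn2d, encoding p19INK4D, had the smallest p, at 24.1, 25.9 and 26.1 CPM with DMSO and 19.6, 23.2 and 23.1 CPM with WM-2474 (log2 fold change -0.21, edgeR adjusted p = 1). Cdkn1b, encoding p27, was at 0.09 on the same scale.

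Genes of the dividing cell were balanced between the directions. Of 45 DNA replication and G1/S genes 23 were above and 22 below 0, and of 40 mitosis genes 20 were above and 20 below, with medians of 0.00 in both lists and each member's 95% interval within 1.5-fold. Mki67, a marker of cycling cells, was at 235.0, 218.2 and 194.1 CPM with DMSO and at 240.5, 225.9 and 231.4 CPM with WM-2474. It was higher at every replicate number. Its log2 fold change was 0.11 (-0.02 to 0.23) without pairs and 0.11 (0.04 to 0.18) with pairs, where it was not called (edgeR adjusted p = 0.406). Gins4, of the replicative helicase, had the smallest p among the higher replication genes with 0.16, and Orc1, of the origin recognition complex, among the lower ones with -0.21. Ect2, a regulator of cytokinesis, had the smallest p among the lower mitosis genes, with a log2 fold change of -0.11. The 4 proliferation genes linked to KAT6A in fibroblasts, Cdc6, E2f2, Melk and Ezh2, were all below 0, between -0.13 and -0.04, and none had the same sign at every replicate number.

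Sterol synthesis and amino acid stress genes lay mostly below 0, by small amounts and without a call in either edgeR fit of all replicates. Of 26 genes of cholesterol synthesis and uptake 24 were below 0 with a median of -0.08, a difference of -5.16%. In this list 14 of the 26 were lower at every replicate number, a larger share than the 13.4% of all tested genes. The medians by number were -0.06, -0.01 and -0.12. The summed levels were 6624, 6369 and 7091 CPM with DMSO and 6453, 6343 and 6579 CPM with WM-2474, so that the groups overlapped and replicate 3 held the widest gap. Besides Acat3, and picked after its values were seen, Sqle, the squalene epoxidase gene, had a log2 fold change of -0.08. Srebf2, encoding the transcription factor of the pathway, was at 0.03.

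Of 33 tested genes of the integrated stress response, the programme that adjusts translation and amino acid supply, 28 were below 0 with a median of -0.06. At every replicate number 14 of the 33 were lower, again a larger share than the 13.4% of all tested genes. Genes of a shared pathway can vary together, so the members of either list do not count as separate evidence. In the stress list the medians by number were -0.05, -0.04 and -0.05. Atf4, its central transcription factor and picked after its values were seen, was at 259.3, 258.3 and 261.3 CPM with DMSO and 244.7, 249.9 and 237.3 CPM with WM-2474, without overlap; its log2 fold change was -0.09 with a standard error of 0.04 (edgeR unadjusted p = 0.0397, adjusted p = 1). Gpt2, an alanine aminotransferase gene, had -0.14, and Sesn2, a stress-induced regulator of mTORC1 signalling, 0.05. The widest fitted difference of the cholesterol list was that of Acat3, at -17.7%, and the lowest log2 fold change of the stress list was -0.19.

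Hypoxia and glycolysis genes, 26 of 30 below 0 with a median of -0.02, and heat shock genes, 16 of 19 below 0 with a median of -0.03, lay closer to the median of all genes. Pgk1, a glycolytic kinase gene, was at 147.3, 146.4 and 156.0 CPM with DMSO and 141.0, 142.7 and 138.4 CPM with WM-2474, giving a log2 fold change of -0.09. Bnip3l, a mitophagy receptor gene induced at low oxygen, was at 0.09. Dnajb1, a heat shock cochaperone gene, went the other way at 0.12, and Hspe1, a mitochondrial chaperonin gene, was at -0.10. Of 21 genes of the unfolded protein response 12 were above 0 and 9 below. Sdf2l1, of the endoplasmic reticulum, had 0.18 and Herpud1, of its degradation machinery, -0.07.

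Genes that respond to foreign compounds held no call. Of 24 tested NRF2 targets 19 were above 0 with a median of 0.03, with Gstm1, a glutathione transferase gene, at 0.21 and Txnrd1, a thioredoxin reductase gene, at -0.05. Cyp1a1 and Cyp1a2, the classical targets of the aryl hydrocarbon receptor, were at 0 in all 6 libraries. Of the 6 tested targets of that receptor 4 were above 0, with Ahrr, its repressor, at 1.83, 2.37 and 1.78 CPM with DMSO and 2.99, 2.52 and 2.82 CPM with WM-2474 (log2 fold change 0.50, edgeR adjusted p = 1). Of 13 other tested enzymes and pumps for foreign compounds 9 were above 0, with Abcb1b, an efflux pump gene, at 0.14 and Cbr3, a carbonyl reductase gene, at -0.05.

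All 13 mitochondrially encoded genes were above 0, with a median of 0.08. Their medians by replicate number were 0.15, 0.11 and -0.04. Summed, they were at 13960, 14020 and 14950 CPM with DMSO and at 14890, 14830 and 14790 CPM with WM-2474, with the DMSO culture of replicate 3 highest of the 6. ND4L, a subunit of respiratory complex I, had the smallest p, at 94.3, 90.2 and 105.9 CPM with DMSO and 111.4, 101.5 and 112.2 CPM with WM-2474 (log2 fold change 0.16, edgeR adjusted p = 1). Because these transcripts share a source in the cell and are counted together, the 13 values do not count as separate evidence.

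Of 71 tested cytosolic ribosomal protein genes 42 were above and 29 below 0, with a median of 0.01. Rps23 was at 0.25 and Rpl11 at -0.11, both among genes with many processed copies. Of 35 ribosome assembly genes 13 were above 0 and 22 below, with Polr1b, of RNA polymerase I, at 0.09.

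Fibroblast identity and signalling genes were spread evenly around 0. Among 12 fibroblast markers 6 were above and 6 below, with Thy1, a surface glycoprotein gene, at 0.05 and Vim, the vimentin gene, at -0.08. Of 37 matrix genes 18 were above 0 and 19 below with a median of 0.00, and Col12a1, a fibril-associated collagen gene, had 0.09 and Tnc, the tenascin C gene, -0.07. Of 23 TGF-β targets 10 were above 0 and 13 below; Bambi, a decoy receptor gene of this pathway, was at 18.8, 17.1 and 18.6 CPM with DMSO and at 17.1, 13.9 and 15.9 CPM with WM-2474 (log2 fold change -0.22, edgeR adjusted p = 1), and Tgfb1, the ligand gene, was at 0.05. Among the 34 p53 targets 19 were above 0 and 14 below, with Btg2 the most regular of the higher ones and Gadd45a, a growth arrest gene, at -0.21. Phlda3, another p53 target, had -0.08.

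Targets of the serum response factor and of YAP, 12 above 0 and 14 below, included Mylk as their highest member and Actg1, cytoplasmic gamma actin, at -0.09. ERK feedback genes, which are induced by the same kinase cascade as Egr1, were split 9 and 9, with Spred3 at 0.13. Of the 11 tested thymosin, prothymosin and profilin genes 4 were above 0 and 7 below. Ptma, encoding prothymosin alpha and named after its values were seen, was at 155.6, 147.5 and 175.3 CPM with DMSO and 177.3, 172.1 and 177.4 CPM with WM-2474, giving a log2 fold change of 0.14, and Pfn2, a profilin gene, was at -0.11. Among secreted factors Lif, a cytokine of the interleukin 6 family, had 0.38 and Igfbp7, an insulin-like growth factor binding protein gene, -0.09. The interferon response list was split 13 and 13, with Xaf1 at 0.27 and Isg15 at -0.40, both at low levels with wide intervals. In none of the lists described was any gene called without pairs.

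**Figure D5:**
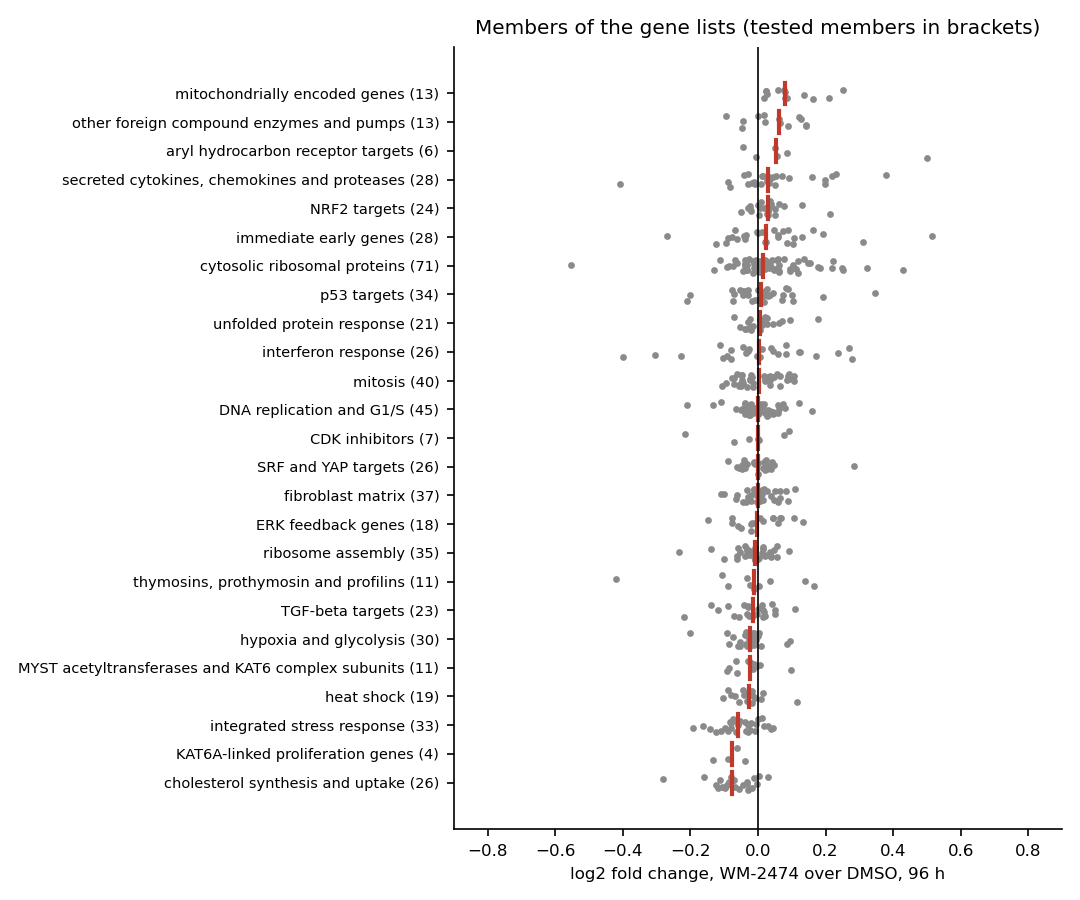
Fitted log2 fold change of WM-2474 over DMSO at 96 h for each tested member (grey points) of 25 gene lists, with the median of each list as a red bar and the number of tested members in brackets. List medians run from -0.08 for cholesterol synthesis to 0.08 for mitochondrially encoded genes.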

How the data were processed

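The authors deposited unnormalized whole-number counts for each gene; per the submitters' processing notes they came from featureCounts on mm10. Aligner, annotation, strand and multiple-mapping settings are not given in the sources used here. Exon lengths deposited in the same table served for TPM. Entries without a gene identifier, 874 of 27179 with 0.547 to 0.633% of the counts at 96 h, were left out, and symbols from GRCm38.p6 matched 25275 identifiers (96.1%). No pair of libraries held the same values.

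Genes were filtered with filterByExpr and scaled by TMM (1.037 to 1.054 at 96 h). The 12 libraries were fitted in edgeR 4.0.16 with 1 coefficient per group (robust quasi-likelihood test, two-sided, Benjamini-Hochberg over all tested genes, threshold 0.05; common biological variation 5.22%, and 2.98% with pairs). CPM are TMM-scaled; ratios by number use log2 CPM with a prior count of 2. Replicate numbers were treated as pairs at 96 h because every same-numbered correlation of deviations exceeded 0.1 (0.30, 0.23, 0.19; other combinations -0.19 to -0.05); at 240 h these were 0.10, 0.11 and 0.04. With 3 against 3 libraries an exact permutation test without pairs cannot go below 0.1. Exchange within the 3 pairs has a higher limit still, and the smaller edgeR p-values rest on a spread estimated across genes. R 4.3.3, limma 3.58.1, DESeq2 1.42.0 and Python 3.11.15 were used.

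The comparison, its genes and the 36 gene lists were chosen with earlier results of these data known. Named by rule were Egr1 and Btg2, the CDK inhibitor and acetyltransferase genes with Mki67, the 8 genes of smallest p per direction at a mean of at least 1 CPM, genes called with pairs, the 3 largest differences without overlap per direction, and the smallest p per direction in each list. Not every gene under this rule is reported here. Alternatives were other scalings, filters, tools, blocks, a test against a fold of 1.2 and leaving out each library.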

Additional observations from a re-analysis of the deposited data

Results flagged for a closer look

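Egr1 differed between the times of exposure in 1 fit. With the replicate number as a block within each time and all 12 libraries, its log2 effect at 240 h minus that at 96 h was -0.29 (edgeR adjusted p = 0.0354), a test chosen after seeing the data; without the block the difference was -0.30 (edgeR adjusted p = 0.977). The effect was 0.31 at 96 h and 0.01 at 240 h. Groups of 3 libraries are too small for the check on single outlying libraries.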

How the results depend on the processing

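With all 12 libraries and no replicate block, 0 genes were higher and 0 lower at 96 h under RLE size factors, library totals, either change of filter, DESeq2, limma-voom with quality weights, a test against a fold of 1.2 and without each library; so too with the 96 h libraries alone. The replicate block over all 12 libraries also gave 0 and 0. The replicate block in the 96 h libraries gave 3 higher and 0 lower genes with edgeR, 3 with RLE size factors, 3 with the CPM filter, 1 with DESeq2 (Egr1) and 7 higher (Egr1, Tmsb10, Dnm3os, Btg2, Nr4a1, Mylk and Dync1h1) with 1 lower (Acat3) by limma-voom. Leaving out a pair gave 4 to 30 higher and 0 to 8 lower genes. The highest counts came without replicate 3, and the cause was not tested. Lars2 was called in opposite directions, at a log2 fold change of 0.19 without replicate 1 and -0.56 without replicate 2. Calls from these fits are thus unstable. Egr1 passed in each fit with the replicate block in the 96 h libraries, with log2 values of 0.28 to 0.35 over all 25 settings. The replicate block within each time, chosen after seeing the data, gave 1 gene higher at 96 h and 6 genes differing between times, against 0 without it.

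The sign of small differences depended on single libraries or on the block; of these values, those of Fos and Junb were called without the pair of replicate 3 and no other. Fos, at 0.00 in the fit of all libraries, was at 0.058 with the replicate block in the 96 h libraries (0.0586 with RLE size factors, 0.0582 with the CPM filter, 0.11 with DESeq2, 0.0436 with limma-voom), 0.0313 with the block over all libraries, 0.0637 with the block within each time and 0.0641 with quality weights. Without single libraries or pairs it ran from -0.32 to 0.52. The other ranges that crossed 0 when single libraries or pairs were left out were -0.8762 to 0.6184 for Fosb, -0.0144 to 0.2159 for Junb, -0.0362 to 0.0212 for Cdkn1a, -0.1892 to 0.0288 for Cdkn2a, -0.0888 to 0.0407 for Cdkn2b, -0.0672 to 0.0304 for Kat5, -0.1633 to 0.0156 for Kat6b, -0.0499 to 0.0225 for Kat7, -0.1027 to 0.1051 for Kat8, -0.0056 to 0.0983 for Sesn2, -0.0222 to 0.0717 for Srebf2 and -0.0143 to 0.0934 for Tgfb1. The 95% interval stayed within 1.5-fold for 55.3% of genes at 1 to 10 CPM and 0% of those under 1 CPM.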
